A study of Homo sapiens with 6 samples.

Results

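Regions of RNA polymerase II occupancy just downstream of gene ends are described here. Their members are the listed regions that the deposited annotation labels as lying under 1 kb, 1 to 2 kb or 2 to 3 kb past the end of a transcript, and there were 8184 of them among 271336 regions in 4 lists. The lists held 1315 such regions for RPB1 in WT cells, 1217 for RPB1 in KO cells, 3136 for RPB1-pSer2 in WT cells and 2516 for RPB1-pSer2 in KO cells. Checked against the annotation of the same genome build, the label turned out to cover gene ends of the minus strand almost alone. Between 97.6% and 99.1% of the members of a list lay within 3 kb past the end of a minus-strand transcript, and comparable regions past plus-strand ends carried the label distal intergenic.

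The study used chromatin immunoprecipitation and sequencing in HepG2, a human hepatoma line, to ask whether the tyrosine phosphatase SHP-1, encoded by PTPN6, affects polymerase occupancy. Genotypes of untreated cells that were compared were SHP-1-WT (a CRISPR control line) and SHP-1-KO (a CRISPR knockout line), each a single-cell culture, so that clone and genotype cannot be told apart. Chromatin of each line was precipitated with an antibody against RPB1, the largest subunit of RNA polymerase II, and with one against RPB1 phosphorylated on serine 2 of its C-terminal repeats, called pSer2 below. There was 1 library per antibody and genotype, so differences between WT and KO were not checked by replicates and are given without p-values. Intervals in parentheses after a percentage are 95% Wilson intervals, which cover counting error only.

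RNA polymerase II does not stop where the messenger RNA ends. It transcribes past the poly(A) signal, the nascent RNA is cut by the cleavage and polyadenylation complex, and the polymerase slows and is released farther downstream with the help of the exonuclease XRN2. Serine 2 phosphorylation accumulates along the gene body, is high near and past the poly(A) site, and is a binding surface for end-processing factors such as PCF11.

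Of the 8 named protein-coding genes among the 10 genes with the highest values in all 4 lists (given below), 7 show what these sites look like in sequence, and ZNF232 is not shown here. For each, the first line below gives the last 30 bases of the gene in GENCODE release 44, with the poly(A) signal (AATAAA or its variant ATTAAA) in capitals where it is present. NACA holds neither motif in these 30 bases, and neither does ZNF232, the gene not shown. AATAAA was in the last 40 bases of 56.5% (49.3 to 63.5) of the 184 coding genes with a member in all 4 lists, against 57.3% of all coding genes. The second line gives the 30 bases around the summit of the strongest WT pSer2 downstream region, with the summit base, the 15th, in capitals. All are hg38 sequence, written 5′ to 3′ on the minus strand, on which all 7 genes lie.
BCL2L1 end, chr20:31664452-31664481: AATAAActgtgtttactcagtgaacaaaga
BCL2L1 summit, chr20:31661952-31661981: acctagaagcagtgGaggaggactggatgt
COA4 end, chr11:73872667-73872696: aaaAATAAAtggggaaactttttattcaaa
COA4 summit, chr11:73870525-73870554: gaaagaatagtaggCtatggaggagggggt
RPL6 end, chr12:112405189-112405218: ttaagaacctaATTAAAtagctgactacat
RPL6 summit, chr12:112402360-112402389: gtgaatggataaccTtgtggtacatccata
KDELR1 end, chr19:48382575-48382604: ttctcttgaAATAAAcagaagaaaatgaaa
KDELR1 summit, chr19:48381247-48381276: gtttaaccaacgctGtgtggtttttcagcc
CDIPT end, chr16:29858357-29858386: gctgcttAATAAAtactcgtctgtcaatga
CDIPT summit, chr16:29857088-29857117: gggcagctggcttcCtctacaataacatag
MOGAT3 end, chr7:101195007-101195036: gtctgtaAATAAAggcatctgcttagcaaa
MOGAT3 summit, chr7:101193250-101193279: ggcacattttccagAcactggggatgggcg
NACA end, chr12:56712305-56712334: ctccctcatttgataaggtttagtgccaca
NACA summit, chr12:56711132-56711161: aatcctgaaatgaaCatgtgaaaatacacc

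Which gene ends the label reaches sets what every count below can show. When regions labelled downstream or distal intergenic were placed by their summit, 1271 WT RPB1 regions lay within 3 kb past a minus-strand gene end and over 1 kb from any annotated start, and 1010 of them (79.5%, 77.2 to 81.6) were labelled downstream. Past plus-strand gene ends there were 1366 such regions, of which 145 (10.6%, 9.09 to 12.4) were labelled downstream and 1221 distal intergenic. The split was alike in the other lists. For KO RPB1 the label was carried by 82.6% (80.3 to 84.7) past minus-strand ends and by 12.6% (10.9 to 14.7) past plus-strand ends. For WT pSer2 the shares were 85.5% (84.2 to 86.7) and 7.90% (6.99 to 8.91), and for KO pSer2 they were 87.6% (86.2 to 88.9) and 8.35% (7.34 to 9.48). Among protein-coding genes the strands are nearly even, with 9861 genes on the minus strand and 10109 on the plus strand. The 1221, 1023, 2811 and 2349 distal-labelled regions past plus-strand ends in the WT RPB1, KO RPB1, WT pSer2 and KO pSer2 lists are used below as the plus-strand counterpart of the members.

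**Figure D1:**
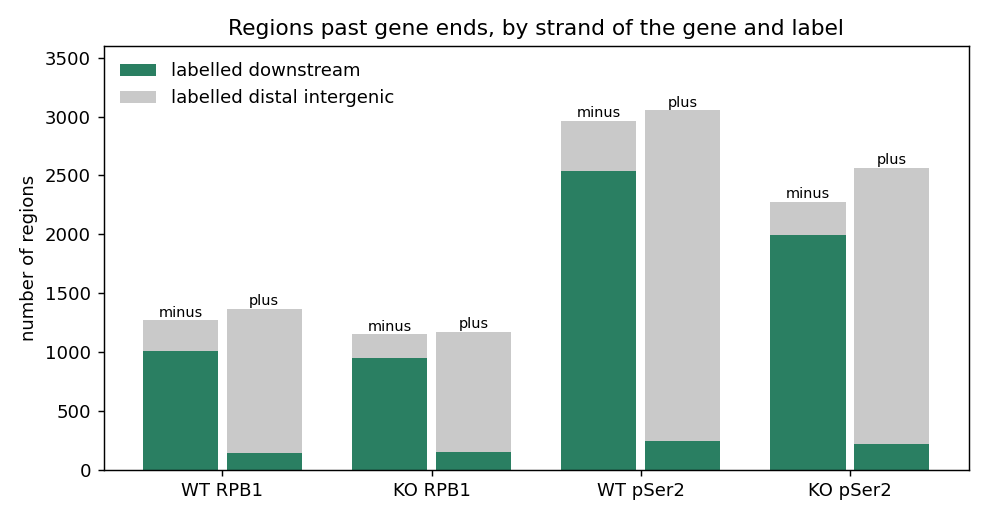
Number of regions per list (y axis) with a summit within 3 kb past a gene end and over 1 kb from a start, in bars for minus-strand and plus-strand genes, split by the deposited label. Minus and plus bars are of similar height, but the label downstream fills 1010 of 1271 regions in the first minus bar and 145 of 1366 in the plus bar beside it.

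Downstream regions made up about the same small share of every list. They were 2.86% (2.71 to 3.01) of WT RPB1 regions, 2.93% (2.77 to 3.09) of KO RPB1 regions, 3.05% (2.95 to 3.16) of WT pSer2 regions and 3.11% (2.99 to 3.23) of KO pSer2 regions. Their number in KO was 0.925 of that in WT for RPB1 and 0.802 for pSer2, next to 0.904 and 0.789 for all regions. They were short, with median widths of 343 and 336 bp for RPB1 in WT and KO and 427 and 432 bp for pSer2, whereas WT RPB1 promoter regions had a median of 895 bp. The median fold enrichment over input, the height the peak caller gives at the summit, was 5.01 for WT RPB1, 5.11 for KO RPB1, 4.06 for WT pSer2 and 4.15 for KO pSer2. Relative to their own lists these values sat on opposite sides of the middle: 61.3% of WT and 63.8% of KO RPB1 members were below the median of all regions of the list, against 35.8% of WT and 36.9% of KO pSer2 members. The median of all regions was 5.51 and 5.62 for RPB1 and 3.69 and 3.80 for pSer2. The sequencing depth of the libraries is unknown from these lists.

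By the deposited distance class, members were most frequent under 1 kb from the gene end, while the summits lay farther out. Under 1 kb were 607 of the WT RPB1 members (46.2%, 43.5 to 48.9), 418 lay at 1 to 2 kb and 290 at 2 to 3 kb. For WT pSer2 the numbers were 1331 (42.4%, 40.7 to 44.2), 1034 and 771. The KO lists were distributed alike, with 47.1% (44.3 to 49.9) of RPB1 and 42.5% (40.6 to 44.4) of pSer2 members under 1 kb. A summit could be assigned to the nearest gene end within 3 kb, in the direction of transcription, for 92.9% of WT RPB1, 94.0% of KO RPB1, 91.7% of WT pSer2 and 91.2% of KO pSer2 members. The median distance from that end was 1124 bp in WT and 1119 bp in KO for RPB1, and 1362 bp in WT and 1332.5 bp in KO for pSer2. Where the same gene had a downstream region for both antibodies, the strongest pSer2 summit was farther from the end than the strongest RPB1 summit at 234 of 434 genes in WT (53.9%, 49.2 to 58.6), by a median of 53.5 bp, and at 216 of 379 genes in KO (57.0%, 52.0 to 61.9), by a median of 71 bp. The quartiles of that difference, -221.5 and 491 bp in WT, spread widely around 0, so the order of the antibodies varied from gene to gene. Between genotypes the typical position differed little: over 497 genes with an RPB1 region in both, the median difference of KO minus WT was 0 bp, and over 1186 genes with a pSer2 region in both it was -14 bp, with quartiles of -363 and 222.5 bp.

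**Figure D2:**
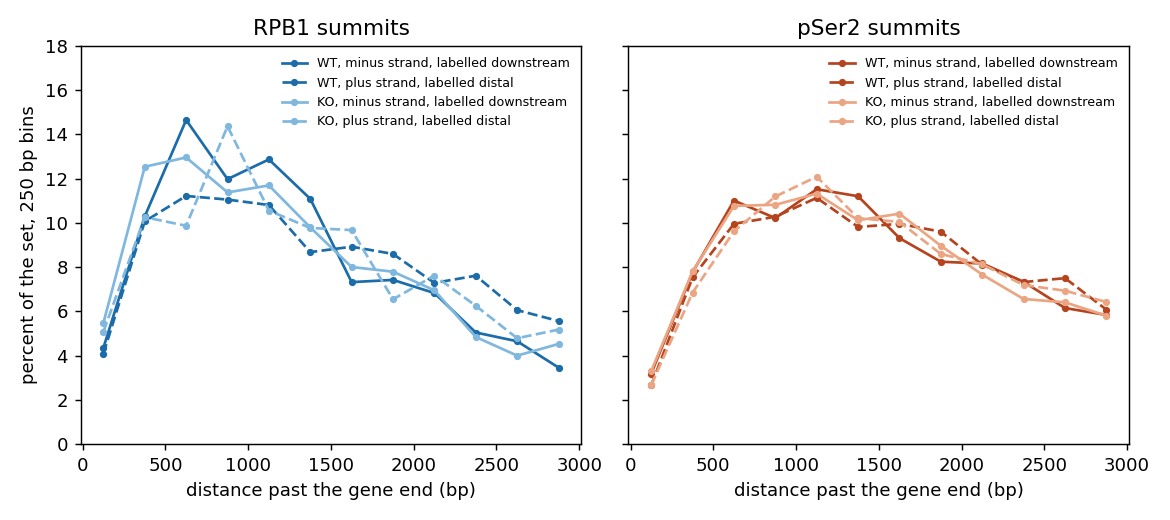
Percent of summits (y axis) in 250 bp bins of distance past the gene end (x axis), for members past minus-strand ends (solid lines) and for their distal-labelled counterpart past plus-strand ends (dashed lines), WT dark and KO light. Every line starts low in the first bin, is highest in a bin centred between 625 and 1125 bp, and is lower again toward 3000 bp.

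The genes ahead of these regions were mostly protein coding, 90.0% of the assigned members for RPB1 in both genotypes and 91.8% and 93.5% for pSer2 in WT and KO. Counted over both strands, the members belonged to 861, 797, 1805 and 1528 genes in the WT RPB1, KO RPB1, WT pSer2 and KO pSer2 lists. Only 58.3% to 60.2% of the assigned members carried the same gene name in the deposited table, which names the gene with the nearest start and not the one whose end precedes the region. For this reason BCL2L1 stands as COX4I2 there and KDELR1 as SYNGR4. In 21.7% (19.6 to 24.1) of WT RPB1 and 13.8% (12.6 to 15.0) of WT pSer2 members the summit lay past 2 gene ends that face each other, and there the gene that the signal belongs to cannot be told apart.

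Member genes also carried polymerase at their other end. Of the 663 minus-strand coding genes with a WT RPB1 downstream region, 585 (88.2%, 85.6 to 90.5) had an RPB1 region within 1 kb of their start, against 57.5% of all 9861 minus-strand coding genes. In KO the shares were 89.1% (86.4 to 91.3) of 606 genes against 55.2%. For pSer2 they were lower, 55.1% (52.5 to 57.6) of 1480 genes in WT against 34.7%, and 51.8% (49.0 to 54.5) of 1256 genes in KO against 31.0%. Within the last 2 kb of the gene a region was listed for 50.2% (46.4 to 54.0) of the WT RPB1 and 57.6% (55.0 to 60.1) of the WT pSer2 member genes, against 20.1% and 35.9% of all minus-strand coding genes. Downstream regions were often pieces of a broken series: the next region toward the gene was under 1 kb away for 54.5% (51.7 to 57.2) of WT RPB1 and 64.4% (62.6 to 66.1) of WT pSer2 members with an assigned gene end. For WT pSer2 these 1852 neighbours included 1046 other downstream regions and 585 labelled 3′ UTR.

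The label also leaves out most regions past gene ends. In the 3 kb past the end of any protein-coding gene, 8442 WT RPB1 regions were found, of which 14.0% (13.3 to 14.8) were labelled downstream, 39.9% promoter and 17.3% 3′ UTR. Of 15967 WT pSer2 regions in the same windows 18.2% (17.6 to 18.8) were labelled downstream, 23.8% promoter and 22.2% 3′ UTR. A region that reaches back into the gene or that lies within 1 kb of any start is given the other label, so a gene without a member is not a gene without polymerase past its end.

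RPB1 and pSer2 met at these sites far more often than at the average RPB1 region. In WT, 1087 of 1315 RPB1 downstream regions (82.7%, 80.5 to 84.6) were overlapped by a pSer2 region of the same cells, and 228 (17.3%) had none, where 41.1% of all RPB1 regions had none. In KO, 1015 of 1217 (83.4%, 81.2 to 85.4) were overlapped and 202 (16.6%) had none, where 41.8% of all RPB1 regions had none. Of the other classes only 3′ UTR regions had a higher share, 85.4% (84.3 to 86.6) in WT and 87.2% (86.0 to 88.3) in KO, while promoter regions had 55.6% and 52.0%. The counterpart past plus-strand ends had 74.6% (72.1 to 77.0) in WT and 75.6% (72.8 to 78.1) in KO, and the remaining distal intergenic regions had 32.8% (31.4 to 34.3) and 34.4% (32.8 to 36.1). The share declined with distance in WT, from 88.0% (85.1 to 90.3) under 1 kb to 81.1% (77.1 to 84.6) at 1 to 2 kb and 73.8% (68.4 to 78.5) at 2 to 3 kb. It was above that of all RPB1 regions at every height, for instance 83.0% (80.6 to 85.2) against 59.0% for WT regions with a fold enrichment of 4 to 8. When the overlap had to span 50% of both regions, 15.4% of WT and 14.7% of KO members passed, next to 12.5% and 12.4% of all RPB1 regions, so the excess held for touching regions far more than for regions of like extent.

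The pSer2 region over an RPB1 member did not always carry the same label. In WT the largest overlap was with a downstream pSer2 region for 540 members, with a 3′ UTR region for 356 and with a promoter region for 156.

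Seen from pSer2 the overlap was the other way. Of the WT pSer2 downstream regions 577 of 3136 (18.4%, 17.1 to 19.8) had an RPB1 region over them and 2559 (81.6%) had none, where 75.8% of all pSer2 regions had none. In KO, 469 of 2516 (18.6%, 17.2 to 20.2) had one and 2047 (81.4%) had none, where 73.9% of all had none. The share was 18.4% (17.0 to 19.9) and 19.8% (18.3 to 21.5) in the plus-strand counterpart. Among members with a pSer2 fold enrichment of 8 or more it was 56.3% (49.0 to 63.3) in WT, still below the 81.0% of all pSer2 regions of that height.

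**Figure D3:**
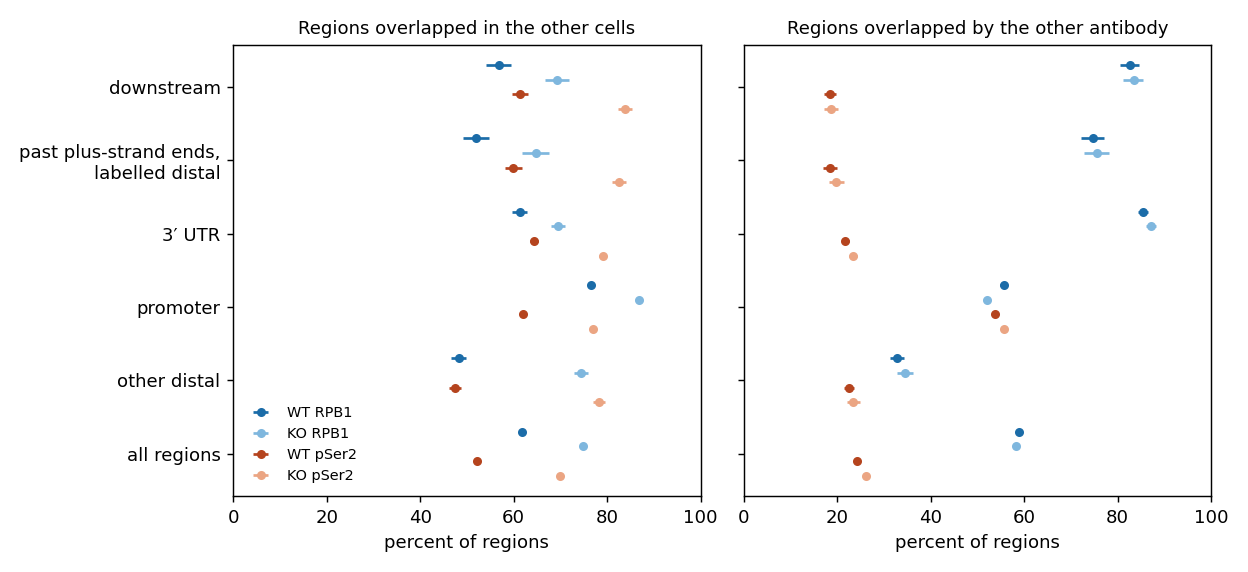
Percent of regions (x axis) overlapped by at least 1 bp in the other cells with the same antibody (left) and by the other antibody in the same cells (right), for the downstream regions, their plus-strand counterpart, other classes and all regions. Points are the 4 lists and bars are 95% Wilson intervals: at the right, RPB1 downstream regions stand at 82.7% and 83.4%, pSer2 downstream regions at 18.4% and 18.6%.

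The comparison of KO with WT asks whether loss of SHP-1 changed which gene ends are followed by polymerase. For pSer2 the downstream regions recurred more often than the average region. Of the KO pSer2 members 2110 of 2516 (83.9%, 82.4 to 85.2) overlapped a WT region and 406 (16.1%) had none, where 30.1% of all KO pSer2 regions had none. Of the WT pSer2 members 1923 (61.3%, 59.6 to 63.0) overlapped a KO region and 1213 (38.7%) had none, where 47.8% of all WT pSer2 regions had none. At matched height the order was the same: 74.9% (72.2 to 77.3) of KO members with a fold enrichment below 4 were shared against 59.1% of all KO pSer2 regions in that range, and 90.1% (88.3 to 91.6) against 83.1% at 4 to 8. The plus-strand counterpart gave like shares, 82.5% (81.0 to 84.0) of KO and 59.9% (58.1 to 61.7) of WT regions. In WT, 64.3% of 3′ UTR, 62.1% of promoter, 51.2% of distal intergenic and 43.0% of intron pSer2 regions were shared. In KO these shares were 79.0%, 77.0%, 79.8% and 59.9%. In WT the members thus did not recur more often than 3′ UTR or promoter regions.

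For RPB1 the pooled share was lower than that of all regions. Of the WT RPB1 members 748 (56.9%, 54.2 to 59.5) overlapped a KO region and 567 (43.1%) had none, where 38.1% of all WT RPB1 regions had none. Of the KO RPB1 members 844 (69.4%, 66.7 to 71.9) overlapped a WT region and 373 (30.6%) had none, where 25.1% of all KO RPB1 regions had none. The height of the regions moved with this difference: promoter regions had a median fold enrichment of 11.9 in WT, and 76.5% of them were shared. Within a fold enrichment of 4 to 8, 53.5% (50.3 to 56.6) of the WT members were shared against 47.2% of all WT RPB1 regions, and at 8 or more 94.3% (89.5 to 97.0) against 96.8%. Shares were lower with distance, 62.1% (58.2 to 65.9) under 1 kb, 54.8% (50.0 to 59.5) at 1 to 2 kb and 49.0% (43.3 to 54.7) at 2 to 3 kb for WT RPB1.

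Members found in 1 genotype alone were weak and narrow. Their median fold enrichment was 4.51 against 5.51 for shared members in the WT RPB1 list, 4.49 against 5.35 in KO RPB1, 3.65 against 4.57 in WT pSer2 and 3.65 against 4.29 in KO pSer2. Their median width was 256 against 462.5 bp in WT RPB1 and 295 against 609 bp in WT pSer2. At the level of genes, 1195 of the 1256 minus-strand coding genes with a KO pSer2 member (95.1%, 93.8 to 96.2) had some WT pSer2 region in the 3 kb past their end, and 1180 of the 1480 with a WT pSer2 member (79.7%, 77.6 to 81.7) had some KO region there.

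Matched from the WT members, the fold enrichment of RPB1 at shared downstream regions was about the same in KO as in WT. The median ratio of KO to WT was 1.03 over the 748 shared members, 1.00 over shared 3′ UTR regions, 0.77 over shared promoter regions and 0.86 over all 28495 shared WT RPB1 regions. Counted on these ratios as deposited, 131 members (17.5%, 15.0 to 20.4) were at least 1.5-fold higher in KO and 97 (13.0%, 10.7 to 15.6) at least 1.5-fold lower, where 9.95% of all shared regions were higher and 24.7% lower. After division by the median ratio of all shared regions, the median of the members was 1.21, and 219 (29.3%, 26.1 to 32.6) were at least 1.5-fold higher, where 16.6% of all were, and 48 (6.42%, 4.87 to 8.41) at least 1.5-fold lower, where 13.4% of all were. Past minus-strand ends, the unscaled median was 1.04 when matched from WT members and 0.85 when matched from the 654 shared KO members. Of the latter, 14.7% (12.2 to 17.6) were at least 1.5-fold higher and 19.9% (17.0 to 23.1) lower after the same scaling. The ratios thus depended on the list from which regions were matched. Also matched from KO, 13.6% of the plus-strand counterpart were higher and 16.8% lower. For the remaining distal intergenic regions these shares were 10.9% and 26.4%. The share over all shared KO regions was not computed in this direction.

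Matched from WT regions, the difference from promoter regions was small among weaker regions and wide among strong ones. Promoter ratios matched from KO regions were not computed, so this contrast holds for 1 direction of matching only. Among shared regions with a mean fold enrichment of both genotypes of 4 to 8, the unscaled median ratio was 1.04 for 570 members, 0.94 for promoter regions and 0.97 for all regions. At 8 or more it was 0.99 for 151 members, 0.98 for 3′ UTR regions, 0.79 for distal intergenic regions and 0.73 for promoter regions. The plus-strand counterpart, shared in 635 WT RPB1 regions, had an unscaled median of 0.99, and the remaining distal intergenic regions had 0.88. Matched from KO these were 0.86 and 0.78, where members past minus-strand ends had 0.85.

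For pSer2 no such difference between classes was seen. The median unscaled ratio was 0.99 over the 1923 shared downstream regions and 1.00 over all 53584 shared WT regions. Matched from the 1664 shared KO members past minus-strand ends, it was 0.89. After scaling, 253 members (13.2%, 11.7 to 14.7) were at least 1.5-fold higher in KO, where 11.7% of all were, and 233 (12.1%, 10.7 to 13.7) at least 1.5-fold lower, where 10.8% of all were. Unscaled, 256 (13.3%) were higher, where 11.9% of all were, and 229 (11.9%) lower, where 10.6% of all were. These shares of the members were close to those of all regions.

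**Figure D4:**
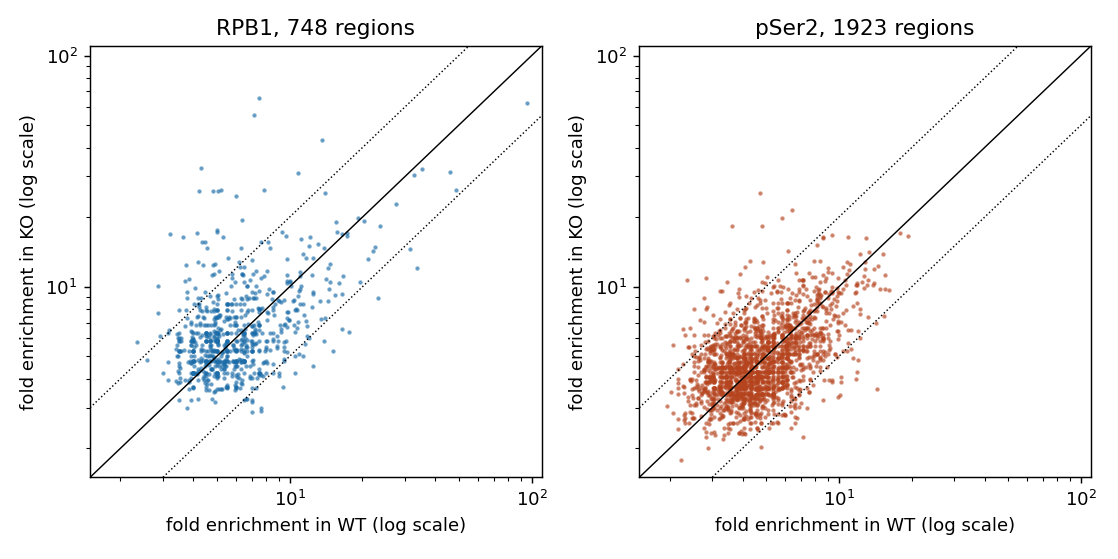
Fold enrichment of shared downstream regions in WT (x axis) and of the overlapping KO region (y axis), both on log scales, for 748 RPB1 and 1923 pSer2 regions, 1 point per region. The solid line marks equal values and the dotted lines 2-fold differences; most points of both antibodies lie between the dotted lines.

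Over both strands 2642 genes had a downstream region in any list, and 208 had one in all 4 lists. With 787 genes, the most common pattern was a region in both pSer2 lists and in neither RPB1 list, followed by 467 genes in the WT pSer2 list alone, 227 in the KO pSer2 list alone and 173 in both RPB1 lists alone. The 10 genes whose lowest value over the 4 lists was highest are given by the strongest region of each list, all as fold enrichment over input. BCL2L1, which encodes the anti-apoptotic protein BCL-XL, had 17.3 for WT RPB1, 17.1 for KO RPB1, 11.0 for WT pSer2 and 11.8 for KO pSer2. Its RPB1 region in WT was chr20:31661261-31662639 and its pSer2 region chr20:31660134-31663090, with summits 2491 and 2485 bp past the gene end.

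RPL6, a protein of the large ribosomal subunit, had 23.6 for WT RPB1, 18.3 for KO RPB1, 9.24 for WT pSer2 and 8.37 for KO pSer2. COA4, a factor for cytochrome c oxidase assembly, had 14.1, 10.8, 14.0 and 10.4 in the same order. NACA, a subunit of the nascent polypeptide-associated complex, had 10.9, 7.06, 14.8 and 9.73. At these 3 genes every KO value was below the WT value of the same antibody. The RPB1 members past RPL6 with 23.6 and 18.3 were also overlapped by promoter-labelled pSer2 regions, of 21.9 in WT and 20.4 in KO.

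KDELR1, a receptor that returns proteins to the endoplasmic reticulum, had 10.0 for WT RPB1, 10.5 for KO RPB1, 11.4 for WT pSer2 and 8.23 for KO pSer2. CDIPT, the phosphatidylinositol synthase, had 9.73, 7.29, 11.8 and 9.54. MOGAT3, a monoacylglycerol acyltransferase, had 8.90, 12.1, 15.4 and 7.50. Its downstream-labelled regions were thus higher in KO for RPB1 and lower for pSer2. Counting any label in the 3 kb past its end, RPB1 had 15.6 in WT and 12.7 in KO. ZNF232, a zinc finger gene, had 8.51, 9.50, 10.4 and 9.80. The pseudogene UGT2B27P had 20.4, 19.2, 8.27 and 9.77, and ENSG00000285756 had 16.5, 11.1, 11.7 and 11.5.

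At the strongest RPB1 members pSer2 ranged from no listed region to 21.5. The highest, chr17:17839008-17841256, had 95.2 in WT and 62.6 in KO and carries the name SREBF1 in the deposited table. Its WT summit lay over 3 kb from any annotated start and had no assigned gene end, and the pSer2 region over it reached 7.58 in WT and 5.69 in KO. The region past RWDD2B, chr21:29002076-29003875, had 48.6 in WT against 26.1 in KO, with 10.8 for pSer2 in WT. The regions named for ID3, FKBP5 and GRB7 in the deposited table had 45.9, 35.1 and 33.6 in WT and 31.4, 32.3 and 12.1 in KO. None of these 3 was overlapped by a pSer2 region in WT. In KO those of ID3 and FKBP5 had pSer2 regions of 4.01 and 3.94, near the median of 3.80 of all KO pSer2 regions. In the KO list a region named for UGGT1, with 30.4, and one past ARHGEF2, with 22.7, were also among the 5 highest, and their WT values were 32.8 and 27.4. ARHGEF2 had the highest of the pSer2 values given here, with 21.5 in KO.

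The strongest pSer2 members ranged from 613 bp, for the one named for LINC00910, to 4629 bp, for the one named for GLUD1. SELENOS, a selenoprotein of the endoplasmic reticulum, had 19.3 in WT over chr15:101266683-101270315 and 16.7 in KO, where the region reached back into the 3′ UTR. A region named for UGT2B10, a liver glucuronosyltransferase, had 17.8 in WT and 17.1 in KO. DLC1 had 16.1 and 9.64, TRAM1 15.6 and 11.2, and ALDH18A1, an enzyme of proline synthesis, 15.5 and 9.82 in WT and KO. In the KO list the highest was a region named for GLUD1, with 24.0 in KO and 26.9 in WT. YWHAE, which encodes a 14-3-3 protein, had 15.1 in KO and 8.11 in WT, and a region named for LINC00910 had 16.7 and 9.33. A region named for TNFSF14 had 16.2 in KO and was overlapped by a promoter-labelled WT region of 48.0. The longest members were 4135 and 4196 bp for RPB1 in WT and KO and 6620 and 5762 bp for pSer2.

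Among members found in WT alone, the strongest RPB1 region lay past SULT2A1, a liver sulfotransferase for steroids and bile acids. It spanned chr19:47868946-47870309 and had a fold enrichment of 16.0 in WT, with no RPB1 region in the 3 kb past the gene in KO. Both antibodies were lower along this gene in KO: RPB1 had 13.2 in WT and 8.20 in KO within 1 kb of the start and 10.4 against 3.89 in the last 2 kb, and pSer2 past the end had 10.7 against 4.95.

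SLC6A8, the creatine transporter on the plus strand, showed the same order. RPB1 past its end had 10.0 in WT and no region in KO, and pSer2 had 11.4 in WT and 4.92 in KO. The deposited class of this RPB1 region was 2 to 3 kb, but its summit lay 853 bp past SLC6A8. The label may thus refer to another gene end. CIDEC, a lipid droplet protein, had RPB1 regions of 9.64 and 9.01 past its end in WT, none in KO and no pSer2 region in either. NANOS3, also on the plus strand, had 12.5 in WT, with no KO region and no pSer2 region. The deposited table names this region for C19orf57. Because the label rarely covers plus-strand ends, the gene that the regions past SLC6A8 and NANOS3 belong to cannot be told apart.

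For pSer2 in WT alone the strongest lay past UPF2, a factor of nonsense-mediated decay, with 8.38 over chr10:11918085-11919196 and no KO pSer2 region in the 3 kb past the gene. The regions past DFFB, PNPT1, CIAPIN1 and HPD had 7.11, 6.94, 6.87 and 6.86, and at all 4 another pSer2 region was listed in KO within those 3 kb, with maxima of 5.13, 4.83, 5.46 and 5.14. DFFB lies on the plus strand and the deposited table names its region for C1orf174, so its assignment is uncertain too.

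Among members found in KO alone, IRX3 was named for both antibodies. IRX3 encodes a homeobox transcription factor, and its KO regions were chr16:54280240-54280553 with 7.22 for RPB1 and chr16:54280075-54281054 with 7.15 for pSer2. Across the 3 kb past its end RPB1 had a maximum of 6.98 in WT and 13.0 in KO, and pSer2 had no region in WT. At its start RPB1 had 7.46 in WT and 16.8 in KO, in a region that also covered the last 2 kb of this short gene.

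WDR82, a subunit of the PNUTS phosphatase complex that acts in transcription termination, had 3 KO RPB1 regions past its end, of 8.45, 7.39 and 5.28, and none in WT. Its pSer2 maximum there was nearly equal, 9.40 in WT and 8.95 in KO, and its start had 23.0 for RPB1 in WT and 14.2 in KO. The other RPB1 regions in KO alone had 7.81, named for SERP1, and 7.11 past NDUFAB1. The other pSer2 regions in KO alone were past PRSS27 with 7.26, TMEM60 with 6.77, TCEA1 with 6.62 and STMN3 with 6.19.

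**Figure D5:**
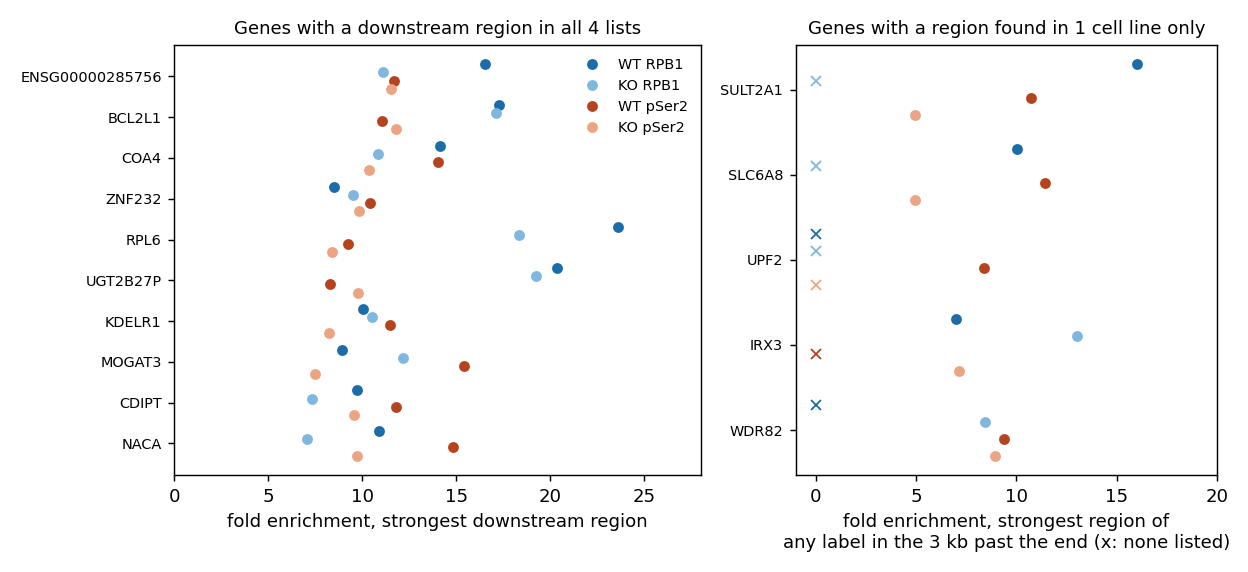
Fold enrichment (x axis) in the 4 libraries for the 10 genes with a downstream region in all lists (left, strongest downstream region) and for 5 genes with a region found in 1 genotype only (right, strongest region of any label in the 3 kb past the end, crosses where none was listed). At SULT2A1 and SLC6A8 the WT values of both antibodies exceed those in KO, and at IRX3 the KO values exceed those in WT.

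Groups of genes with known roles were counted on the minus strand, the one the label mostly covers. Of all 9861 minus-strand coding genes, 6.72% had a downstream region in the WT RPB1 list, 6.15% in KO RPB1, 15.0% in WT pSer2 and 12.7% in KO pSer2, and 20.8% in any list. Of 39 cytosolic ribosomal protein genes on that strand 10 had one in any list (25.6%, 14.6 to 41.1), with 5, 6, 6 and 8 in the 4 lists. RPL29 had 13.3 and 14.1 for pSer2 in WT and KO and no RPB1 member. Counting any label in the 3 kb past its end, RPB1 had 50.9 in WT and 17.2 in KO. RPL39 had at most 6.32 and 7.92 for RPB1 in WT and KO. RPS29 had 7.47 for pSer2 in WT, at a site where a 3′ UTR-labelled KO region reached 7.68.

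Of 14 genes for messenger RNA end formation and termination, 6 had a downstream region (42.9%, 21.4 to 67.4). The lower bound of this interval is just above the 20.8% of all minus-strand coding genes. Among the 6 were CPSF7, NUDT21, SCAF4, INTS1 and WDR33. NUDT21, a cleavage factor subunit, had 5.15 for pSer2 in WT and 4.41 in KO. CPSF7, its partner in that factor, had 6.27 for RPB1 in WT and 6.86 in KO.

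Of 24 secreted liver protein genes on the minus strand 7 had one (29.2%, 14.9 to 49.2): A1BG, AMBP, APOH, C3, F5, FGA and ITIH4. Several of these were ends of long occupied blocks. The KO RPB1 regions past AMBP, APOH and FGA, with 15.6, 7.06 and 4.41, were overlapped in WT by regions of 21.5, 34.5 and 25.3 that carried the label 3′ UTR or promoter. The strongest KO RPB1 region of any label in the 3 kb past these genes had 15.6, 22.6 and 11.1. Coagulation factor F5 had 9.21 for pSer2 in WT and 5.42 in KO. Complement C3 had 5.80 for RPB1 in WT and 7.92 in KO, but the KO region lay over a WT region of 19.5 whose summit was not assigned to C3.

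Of 10 minus-strand genes of glycolysis and gluconeogenesis 3 had one, among them ENO1 and PC. Pyruvate carboxylase, PC, had 5.01 for RPB1 in WT and 7.39 in KO. ENO1 had 5.36 in WT and 4.43 in KO at its farther member, and its KO member of 8.88 lay over a 3′ UTR-labelled WT region of 10.4. Of 8 heat shock and stress genes 3 had one, and HSPD1, the mitochondrial chaperone, had 12.2 for RPB1 in WT, overlapped in KO by a 3′ UTR region of 16.4. Of 39 histone genes found by their symbols 3 had one, H1-10, H2AC14 and H3C2, all for RPB1 and none for pSer2. Counting any label in the 3 kb past their ends, pSer2 had 6.73, 10.5 and 11.2 in WT. In KO it had 5.30, 10.5 and 10.7 there. Over both strands, 6 of 1804 genes and pseudogenes named as RNU small nuclear RNAs were the nearest end before a member.

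Few members lay at the genes the study centred on. No region of any label was listed in the 3 kb past the end of PCK1, the gluconeogenic phosphoenolpyruvate carboxykinase, in any of the 4 lists, and PCK1 lies on the plus strand, which the label rarely covers. PTPN6, also on the plus strand, had 1 WT RPB1 member, chr12:6961863-6962119, with 6.15, at a site where a promoter-labelled KO region reached 4.86. Farther on in the same 3 kb, promoter-labelled pSer2 regions had 13.7 in WT and 14.3 in KO, and RPB1 had a promoter-labelled region of 11.4 in KO, which lay over a WT region of 9.30. RPB1 was listed within 1 kb of its start with 24.0 in WT and 17.2 in KO, and pSer2 with 4.03 and 5.24, so the lists held polymerase at this gene in both genotypes. STAT5A, also on the plus strand, was the assigned gene of a downstream RPB1 region of 16.5 in WT and 9.27 in KO. The deposited table names it for the neighbouring STAT3, and which of these genes the signal belongs to cannot be told apart. As a check of the cell type, APOB, APOA1 and HNF4A had regions at their start in all 4 lists, and PTPRC and COL1A1, markers of leukocytes and fibroblasts, had none. Other liver genes had fewer regions within 1 kb of the annotated gene start: FGB lacked one in the KO pSer2 list, AFP in both pSer2 lists, ALB and SERPINA1 in all but the WT RPB1 list and TTR in all 4. Yet ALB carried long promoter-labelled regions in all 4 lists, of 24.4 and 24.1 for RPB1 in WT and KO and 15.1 and 18.6 for pSer2. A gene without a region in that window is therefore not a gene without polymerase. PECAM1, an endothelial marker, had one of 3.39 for WT pSer2 alone.

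The DNA under the summits of pSer2 members was like that of all pSer2 regions in most measures. RPB1 members had a lower GC content and more often a poly(A) signal than all RPB1 regions, as intron and distal intergenic RPB1 regions also had. In windows reaching 100 bp to each side of the summit the median GC content was 51.7% for WT RPB1 members, 50.2% for KO RPB1, and 44.3% for both pSer2 lists, against 57.2%, 55.7%, 44.3% and 43.8% for all regions of each list. The poly(A) signal AATAAA, searched on both strands, was in 15.3% (13.5 to 17.3) of WT RPB1 member windows and 10.8% of all WT RPB1 windows, and in 22.9% (21.5 to 24.4) of WT pSer2 member windows and 23.8% of all. For WT RPB1, promoter regions had a median GC content of 64.7% and AATAAA in 5.91%, and exon regions 57.7% and 9.74%. Intron regions had 51.2% and 15.9%, distal intergenic regions 52.2% and 14.7%, and 3′ UTR regions 55.2% and 14.7%, close to the members. TGTGTT was in 13.1% (11.4 to 15.0) and 17.0% (15.7 to 18.3) of the WT RPB1 and WT pSer2 member windows, against 10.2% and 16.0% of all. ATTAAA was in 8.37% (6.99 to 9.99) and 16.7% (15.4 to 18.1), against 6.78% and 17.2%, and GGGGAGGGG in 1.52% (0.987 to 2.34) and 0.925% (0.645 to 1.33), against 3.68% and 1.35%. At the gene ends themselves AATAAA stood in the last 40 bases of 58.0% (54.5 to 61.4) of the 771 coding genes with a WT RPB1 member and of 62.5% (60.2 to 64.8) of the 1644 with a WT pSer2 member, against 57.3% of all 19970 coding genes. The 500 bp past the end had a median GC content of 49.8% for the first, 44.6% for the second and 45.0% for all coding genes.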

How the data were processed

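ChIP-seq regions of RPB1 and RPB1-pSer2 in the WT and KO HepG2 lines, 1 library per antibody and line, were taken from 4 annotated region lists. Per the study's methods, the authors used Trimmomatic for trimming, BWA for alignment to hg38, and MACS2 for narrow regions over input DNA. Tool versions and read depths are not given in the sources used here. The deposited values were the fold enrichment over input (a ratio, which depends on depth in both libraries), −log10 of the p-value, −log10 of the q-value, and an integer score that is 10 times the latter. The 2 input libraries, and the authors' window table of p-values and counts of windows up or down from csaw, were not used here.

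Regions were matched by an overlap of at least 1 bp, taking the largest overlap, and placed on GENCODE release 44 genes of the same build: the gene whose end was nearest before the summit on its own strand, within 3 kb. All 271336 regions lay inside hg38 chromosomes, and 99.2% of members had an edge within 3 kb of a release 44 transcript end. Ratios of KO to WT were matched from WT regions unless stated otherwise. They were divided by the median ratio of all shared regions (0.856 for RPB1, 1.00 for pSer2). Matching, gene assignment and fold calls were tested on simulated regions. Python 3.11.15, pandas 2.3.3, NumPy 2.4.6, SciPy 1.17.1 and matplotlib 3.10.9 were used. With 1 library per condition no test was run.

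Members and gene lists were chosen with earlier results of these data known. Named were the 5 strongest members of each list, the 10 genes present in all 4 lists with the highest lowest value, the 5 strongest members of each list found in 1 genotype alone, the longest member of each list, and members of the gene lists, of which examples are given. Some list members are not reported here. The comparison by strand was added after the data had been seen. Alternatives were a −log10 q-value of at least 5, chromosomes 1 to 22 and X, other overlap rules, distinct intervals, unscaled ratios, a 2-fold threshold and the authors' gene names.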

Additional observations from a re-analysis of the deposited data

How the results depend on the processing

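No paired analysis was possible because each condition had 1 library, with no replicate numbers in the labels. Of 116 values recomputed under the alternatives, 62 stayed within the 95% interval of the value reported (for gene counts, within 1.5 times) and 54 did not. Lists are given in the order WT RPB1, KO RPB1, WT pSer2, KO pSer2. None of the 20 values moved on chromosomes 1 to 22 and X, none of 8 with distinct intervals and none of the 4 values with the authors' gene names and none of the 4 with minus-strand gene ends alone. With regions of a −log10 q-value of at least 5, members were 2.30%, 2.45%, 3.72% and 3.70% of the lists, and RPB1 members had 494 and 473 genes in WT and KO. The shared percentages of pSer2 were then 59.1% and 80.9%, where all pSer2 regions had 54.0% and 70.8%. Those with RPB1 over them were 15.3% and 16.8%, where all pSer2 regions had 29.6% and 31.7%. Ratios of pSer2 called higher and lower were 10.1% and 9.77%. Members under 1 kb were then 45.6% in KO pSer2, and AATAAA was in 13.3% of WT RPB1 windows. The overlap rule mattered most. With a reciprocal overlap of 50% the shared percentages were 25.4%, 27.9%, 33.4% and 41.7%, where all regions had 40.1%, 44.3%, 26.0% and 32.9%. Those overlapped by the other antibody were then 15.4%, 14.7%, 5.74% and 6.20%, where all regions had 12.5%, 12.4%, 5.59% and 6.38%, so the excess at RPB1 members was small under that rule. Ratios called higher were then 25.4% for RPB1 and 9.26% for pSer2. With a region within 500 bp as a match, the shared percentages were 71.0%, 82.3%, 74.5% and 92.4%. All regions then had 74.3%, 85.1%, 65.8% and 82.2%. Members with the other antibody were then 89.1%, 88.7%, 24.9% and 23.9%, where all regions had 66.4%, 65.4%, 29.5% and 31.5%. With only a downstream region as a match, the shared percentages were 49.1%, 53.7%, 54.7% and 71.1%. Unscaled, 17.5% of RPB1 members were higher and 13.0% lower in KO, where 9.95% and 24.7% of all were. At 2-fold, 11.9% and 1.60% were higher and lower for RPB1 and 3.33% and 2.55% for pSer2. Under the q-value, reciprocal overlap and 2-fold settings the called shares of all regions were not computed, so these called shares have no background. By position on both strands, chosen after seeing the data, the regions were 5.73%, 5.58%, 5.86% and 5.98% of the lists and belonged to 1816, 1599, 3638 and 3075 genes. The shared percentages were then 53.8% for WT RPB1 and 59.4% for WT pSer2, and 76.1% and 77.5% of RPB1 regions had a pSer2 region over them in WT and KO. The causes of these shifts were not tested beyond what each setting itself removes. Lists hold regions past a caller's threshold only, so a region missing from 1 list may lie just under it.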
